A study of Homo sapiens with 6 samples.

Results

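The 9 genes described here encode cell surface antigens by which acute myeloid leukemia (AML) cells are recognised: CD34, PROM1, CD33, CLEC12A, CD38, CD44, CD47, HAVCR2 and CD96. They were chosen by name, as 9 of 20015 protein-coding genes of GENCODE v44 on hg38, and not by a cut on a measured value. Earlier results of these data were known when they were chosen. For each gene, the peaks of H3K27ac (histone H3 acetylated at lysine 27) were counted and measured in 2 windows. The promoter window was centred on the start site of the canonical transcript, with 2500 bases on either side. The gene region was the gene body with 20 kb on each side.

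The peaks came from CUT&Tag, an assay in which an antibody against the mark brings a transposase to the chromatin that carries it. The cells were 2 human AML cell lines. Kasumi-1 is known for a RUNX1::RUNX1T1 fusion, and MV4-11 for a KMT2A fusion. Each line had 1 control library (NC), which the labels give as untreated, and 1 library with knockdown of ANP32B (sh-ANP32B). ANP32B encodes an acidic nuclear phosphoprotein that binds histones. In the methods of the study, short hairpin RNAs were delivered to both lines by lentivirus and stable lines were selected with puromycin. Whether the NC cells of this assay carried a control hairpin is not given in the labels. The series holds 6 samples, and the 2 IgG samples, 1 per line, are not analysed here. Replicates had been merged before peak calling, so each group has 1 peak list, no difference has a replicate check and no test was possible. The lists hold no peak heights or read totals, so sequencing depth is unknown. Below, NC cells are called control cells and sh-ANP32B cells knockdown cells, and 4 values in a row stand for Kasumi-1 control, Kasumi-1 knockdown, MV4-11 control and MV4-11 knockdown. A hairpin acts on RNA, so these lists offer no check that ANP32B was reduced.

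Acetylated H3K27 marks active promoters and enhancers, and a wide peak over a start site is typical of a transcribed gene. Surface antigens report how far a leukemia cell has travelled from the stem cell state. CD34, PROM1 and CD38 are used to divide stem and progenitor cells. CD33 and CLEC12A mark the myeloid lineage and leukemic stem cells, and CD44 is an adhesion receptor. CD47, HAVCR2 and CD96 take part in the contact between leukemia cells and immune cells. Several of these proteins are targets of antibodies or engineered T cells. Peak width and covered bases describe the extent of the mark along the DNA, and not its height or the amount of RNA or protein.

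The 4 lists held between 22136 and 24523 peaks on chromosomes 1 to 22, X and Y, with median widths between 742 and 1044 bases. A promoter peak was present at 47.7%, 45.3%, 35.8% and 28.6% of protein-coding genes, and the smallest peak was 357, 354, 289 and 275 bases wide. Where both libraries of a comparison had a promoter peak, the median log2 ratio of promoter bases was 0.0041 for sh-ANP32B over NC in Kasumi-1, -0.27 in MV4-11, and 0.58 for Kasumi-1 NC over MV4-11 NC. For gene regions the medians were 0.019, -0.32 and 0.53. Every difference of a single gene is to be read against these shifts.

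The labels of the cell lines were checked against genes that tell the fusions apart, and part of these went against the labels. RUNX1T1, POU4F1, KIT and TRH, markers of RUNX1::RUNX1T1 leukemia, had 0 promoter bases under peaks in all 4 libraries. HOXA9, a homeobox gene typical of KMT2A leukemia, had 4335 and 4707 promoter bases in the Kasumi-1 NC and sh-ANP32B libraries but 769 and 659 in those of MV4-11. HOXA10 was covered over 5001 and 5001 bases in Kasumi-1, and over 2648 and 1638 in MV4-11. For MEIS1 the values were 3103, 3264, 3337 and 3123 bases, for PBX3 2616, 1570, 0 and 0, and for MEF2C 482, 0, 0 and 322. Thus HOXA9, HOXA10 and PBX3 went against the labels, as did the gene region of KIT at 2769, 2820, 5423 and 4951 bases. MEIS1, RUNX1T1, POU4F1 and the MEF2C promoter did not separate the lines. The gene regions of TRH, at 623, 579, 383 and 0 bases, and of MEF2C, at 482, 0, 2821 and 2987, ran with the labels. By the 1.5-fold rule given below, 61.9% of promoters and 50.9% of gene regions with a peak in either were higher in Kasumi-1 NC than in MV4-11 NC. HOXA9, HOXA10, PBX3 and the TRH region ran in this common direction, and the regions of KIT and MEF2C against it. The names Kasumi-1 and MV4-11 below therefore mean the libraries labelled so. The comparisons of knockdown with control inside a line stand without the other line, whereas every comparison between the lines rests on these labels.

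Of 8 myeloid markers, 5, 5, 6 and 4 had a promoter peak in the 4 libraries, with 15574, 14847, 10021 and 7082 bases under peaks in all. MPO and CSF1R were at 0 in each. The 4 T cell markers and the 2 megakaryocyte markers were at 0 promoter bases in all libraries. Of the 3 B cell markers, 2, 2, 1 and 1 had a promoter peak, of the 3 NK cell markers 1, 2, 1 and 1, and of the 3 erythroid markers 1, 1, 1 and 0. The summed promoter bases were 2092, 2297, 1127 and 1128 for B cell markers, 3391, 3929, 1613 and 1005 for NK cell markers, and 1282, 1120, 248 and 0 for erythroid markers. Their part in the results below was not tested.

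A promoter peak was found at 4 of the 9 antigen genes in both Kasumi-1 libraries and at 3 of 9 in both MV4-11 libraries, and it was not at the same genes. CD44 alone had one in all 4 libraries. CD33 had one only in Kasumi-1 and CLEC12A only in MV4-11. CD47 had one in 3 libraries and lacked it in MV4-11 sh-ANP32B, where HAVCR2 had its only one. PROM1, CD38 and CD96 had no promoter peak in any of the 4.

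**Figure D1:**
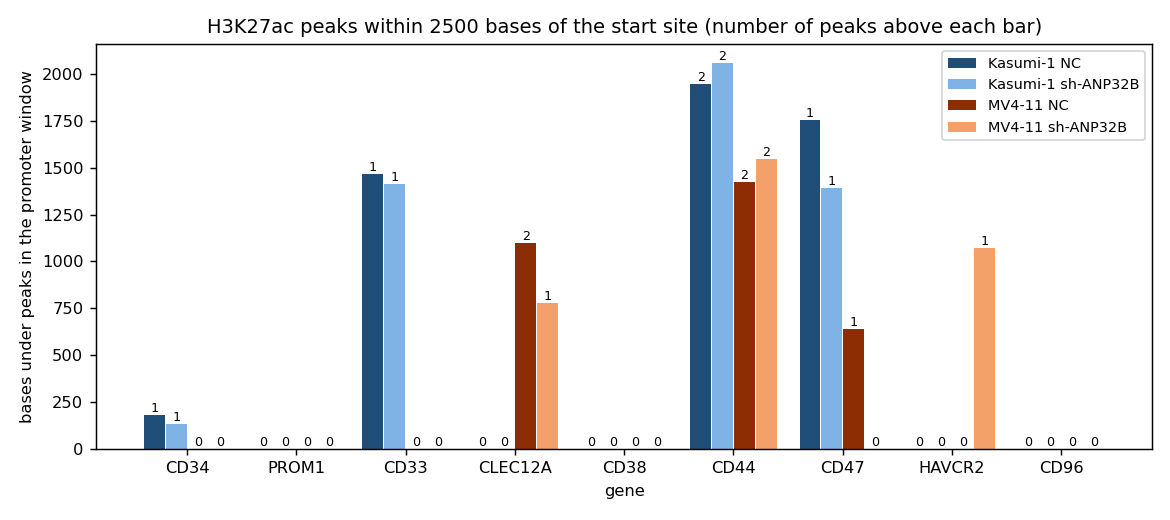
Bases under H3K27ac peaks (vertical axis) in the window of 2500 bases to each side of the canonical start site of each of the 9 genes (horizontal axis). Bars are the 4 libraries, with 1 list per group and so no error bars, and the number above each bar is the number of peaks. CD44 is covered in all 4 libraries, CD33 only in the libraries labelled Kasumi-1 and CLEC12A only in those labelled MV4-11.

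In the wider gene regions, 6, 6, 7 and 5 of the 9 genes held peaks. The members' median was 2469, 2000, 1365 and 385 bases. The medians over all protein-coding genes were 1340, 1286, 787 and 446 bases. The members thus lay above the median gene in 3 libraries and below it in MV4-11 sh-ANP32B. CD44, CLEC12A and CD34 held most of the covered bases, and PROM1 and CD96 held 0 in every library.

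**Figure D2:**
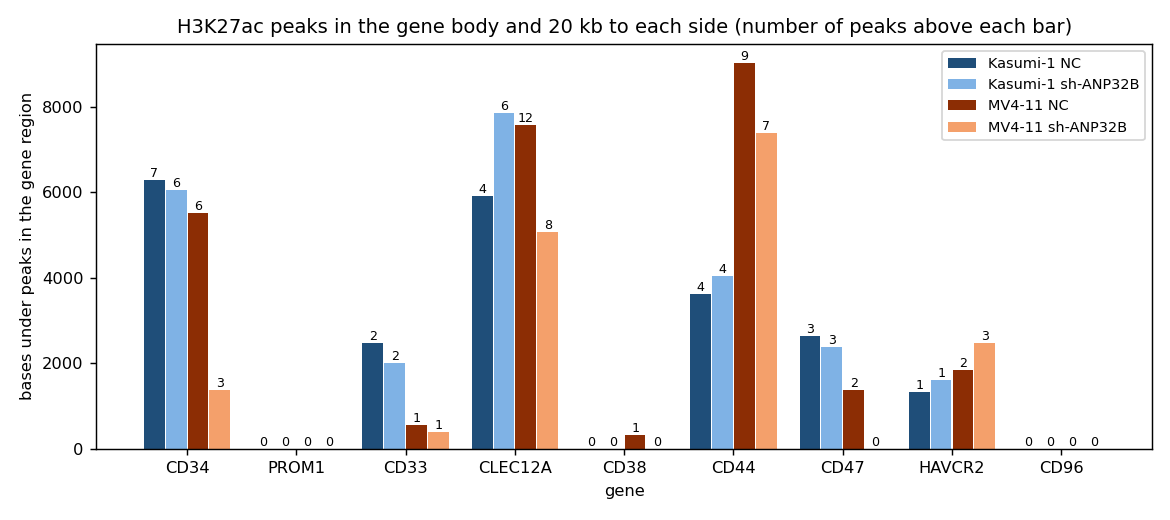
Bases under H3K27ac peaks (vertical axis) in the gene body with 20 kb on each side of each of the 9 genes (horizontal axis), as bars for the 4 libraries, with the number of peaks above each bar. CD44 reaches 9024 bases in MV4-11 NC, and the CD34 bars stand at 6296, 6062, 5526 and 1384 bases, with MV4-11 sh-ANP32B the lowest.

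CD34, a sialomucin carried by blood stem and progenitor cells, had no peak over its canonical start site in any library (gene ENSG00000174059.17, chr1:207880972-207911402, minus strand). Its promoter window held 180 bases in Kasumi-1 control cells, 132 in Kasumi-1 knockdown cells, and 0 in both MV4-11 libraries. These bases were the edge of 1 peak in intron 1, 563 and 490 bases wide, which began 2321 and 2369 bases from the start site. Of the 4 annotated starts of the gene, 1 lay under a peak in each Kasumi-1 library and 0 in MV4-11. The peak over that start was not this one but the peak in intron 4. The gene region was better covered, with 7 peaks and 6296 bases in Kasumi-1 control cells and 6 peaks and 6062 bases after knockdown. In MV4-11 it held 6 peaks and 5526 bases in control cells but 3 peaks and 1384 bases after knockdown. The first 3 libraries were alike, and MV4-11 sh-ANP32B stood alone at the low end.

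Peaks of the 4 lists that overlapped were merged into intervals, of which the CD34 region had 7. The 3 present in all 4 libraries lay downstream of the gene, between 43132 and 49081 bases from its start site, inside the noncoding gene MIR29B2CHG, a microRNA host gene. The widest of them, chr1:207866499-207869487, was covered over 2919 and 2989 bases in Kasumi-1 and over 1707 and 676 in MV4-11. The neighbouring interval chr1:207863095-207864703 was covered over 701, 734, 1609 and 372 bases. Inside the gene, the interval in intron 4 held 443, 623, 348 and 0 bases, and the 1 in intron 1 at 6152 bases from the start site 421, 470, 696 and 0 bases. After knockdown in MV4-11, no peak therefore remained inside CD34, and the 3 downstream intervals were still present but narrower. 1 further downstream interval, chr1:207872956-207873634, was covered over 514 and 366 bases in the NC libraries of Kasumi-1 and MV4-11 and over 0 bases after knockdown in either line. Which gene these downstream intervals serve was not tested.

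PROM1, which encodes the stem cell antigen CD133, held no peak in its gene region in any library (ENSG00000007062.12, chr4:15963076-16084378, minus strand). The nearest peak lay 141714, 141724, 142059 and 392103 bases from its start site. CD38, an ectoenzyme that turns over NAD and marks more mature progenitors, was close to empty (ENSG00000004468.13, chr4:15778275-15853232, plus strand). Its region held 1 peak of 317 bases in intron 1 in MV4-11 NC and 0 bases in the other 3 libraries. That peak was wider than only 3.76% of the peaks of its list and narrower than the smallest peak of either Kasumi-1 list, so its absence from those lists cannot be told apart from their larger minimum width. The minimum width of MV4-11 sh-ANP32B was smaller than this peak.

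CD33, a sialic acid binding lectin of myeloid cells and the target of an antibody conjugate, divided the lines (ENSG00000105383.15, chr19:51225064-51243860, plus strand). Its promoter window held 1464 bases in Kasumi-1 control cells, 1411 after knockdown, and 0 in MV4-11 cells of either kind. In both Kasumi-1 libraries this was 1 peak over the start site, covering 5 of the 6 annotated starts, and none of the 6 was covered in MV4-11. Of all protein-coding genes, 9.72% shared this pattern of a promoter peak in both Kasumi-1 libraries and in neither MV4-11 library. CD34 shared it too, through the edge of its intron peak.

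A second Kasumi-1 peak lay 13852 bases upstream of CD33 in the pseudogene SIGLEC22P, 1005 bases wide in NC and 589 in sh-ANP32B. MV4-11 had instead 1 peak downstream, in the neighbouring gene SIGLECL1, of 552 bases in NC and 385 in sh-ANP32B. No interval in the CD33 region was shared between the lines. The genes outside the region with the most similar promoter bases over the 4 libraries were MFSD5 at 1453, 1415, 0 and 0 bases, CLCC1 at 1460, 1390, 0 and 0, and TRAPPC9 at 1482, 1397, 0 and 0. Their Euclidean distances from CD33 were 11.7, 21.4 and 22.8 bases.

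CLEC12A, an inhibitory C-type lectin receptor of myeloid cells, showed the opposite pattern at its start site (ENSG00000172322.14, chr12:9951316-9995694, plus strand). Its promoter window held 0 bases in both Kasumi-1 libraries, 1099 in MV4-11 control cells and 780 after knockdown. A promoter peak in both MV4-11 libraries and in neither Kasumi-1 library was found at 0.565% of protein-coding genes. The canonical start site was covered in both MV4-11 libraries, by a peak of 805 bases in NC and 780 in sh-ANP32B. A further peak of 294 bases in intron 1 was present in MV4-11 NC alone. It was wider than only 0.728% of the peaks in that list. Of the 6 annotated starts, 0, 0, 3 and 4 lay under a peak in the 4 libraries.

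The CLEC12A region was nevertheless covered in every library. In Kasumi-1 it held 4 peaks and 5924 bases before and 6 peaks and 7853 bases after knockdown. In MV4-11 it held 12 peaks and 7577 bases before and 8 peaks and 5084 bases after. Most of these lay upstream of the canonical start site. The interval chr12:9951667-9953997, near the first base of the annotated gene and within the antisense gene CLEC12A-AS1, was covered over 2228, 2191, 1097 and 749 bases. Others lay over the noncoding gene LINC02470, and the farthest, 38239 bases upstream, lay over the promoter of CLEC2A, another lectin gene, with 2094, 2630, 1621 and 1980 bases. Of the 10 upstream intervals, 4 were present in every library, 4 in MV4-11 alone and 2 in Kasumi-1 sh-ANP32B alone. The canonical start site itself was covered only in MV4-11.

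The promoters of CD33 and CLEC12A are printed because the lines differ over them. They are 300 bases from RefSeq on GRCh38.p14, with 250 bases before and 50 from the start site on, 5′ to 3′ on the coding strand. Capitals mark matches to 8 short motifs, searched on both strands and each named for the factor or element that its letters resemble. RUNX proteins were represented by TGTGGT and the ETS family by GGAAGT. For the C/EBP family the letters were TTGCNNAA, and for the AP-1 dimer they were TGANTCA. The E-box was searched as CACGTG and the GC box as GGGCGG. The letters of the GATA motif were AGATAA, whereas those of the TATA box were TATAAA. Positions count the start site as 1 and the base before it as -1.
CD33, chr19:51224830-51225129, plus strand: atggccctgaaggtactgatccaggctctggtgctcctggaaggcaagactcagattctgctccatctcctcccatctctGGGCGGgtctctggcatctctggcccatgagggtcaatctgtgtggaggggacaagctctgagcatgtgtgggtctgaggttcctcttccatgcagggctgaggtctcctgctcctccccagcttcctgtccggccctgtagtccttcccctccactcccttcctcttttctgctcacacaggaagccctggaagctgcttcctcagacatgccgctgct
CLEC12A, chr12:9971159-9971458, plus strand: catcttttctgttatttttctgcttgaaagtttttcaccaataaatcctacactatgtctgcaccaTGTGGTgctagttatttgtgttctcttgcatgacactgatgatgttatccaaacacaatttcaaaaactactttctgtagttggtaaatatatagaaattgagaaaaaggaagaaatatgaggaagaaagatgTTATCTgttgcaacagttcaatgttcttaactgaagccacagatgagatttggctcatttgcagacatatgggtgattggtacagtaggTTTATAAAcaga
CD33 held 1 match, a GC box at -170 from the start site, and 45.0% of 35116 RefSeq promoters hold that motif. CLEC12A held no GC box but 1 RUNX match at -184 (13.1% of promoters hold one), 1 GATA match at -51 (10.3%) and 2 overlapping TATA box matches after the start site (11.5%). These matches describe the letters of the window only.

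CD44, the receptor for hyaluronan, was covered in every library and most widely in MV4-11 (ENSG00000026508.21, chr11:35138882-35232402, plus strand). Its promoter window held 1947 bases in Kasumi-1 control cells and 2057 after knockdown, and 1421 in MV4-11 control cells and 1547 after knockdown, each in 2 peaks. A promoter peak in all 4 libraries was found at 25.9% of protein-coding genes. The peak over the start site was 1618, 1803, 1199 and 1155 bases wide, and 10, 10, 9 and 9 of the 35 annotated starts lay under a peak. Its promoter bases thus differed by less than 1.5-fold in each of the 3 comparisons made here.

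Farther into the gene the lines parted. In Kasumi-1 the CD44 region held 4 peaks and 3622 bases before and 4 peaks and 4051 bases after knockdown. In MV4-11 it held 9 peaks and 9024 bases before and 7 peaks and 7381 bases after. MV4-11 NC thus had more bases here than 96.1% of protein-coding genes had in theirs, and Kasumi-1 NC more than 74.5%. Of the 10 merged intervals, 4 were in all libraries, all of them in the first intron or over the start site, and 6 were in MV4-11 libraries only. The widest MV4-11 interval, chr11:35161353-35164376 in intron 1, was 23693 bases from the start site and covered 0, 0, 3024 and 2123 bases. Another in intron 1, 34502 bases from the start site, covered 0, 0, 1427 and 1500 bases. Both were thus still wide after knockdown, and the NC peak of the first was wider than 94.99% of the peaks of its list.

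The CD44 promoter is printed as the promoter covered in all 4 libraries. Beside it stand the 300 bases at the centre of the widest MV4-11 NC peak of intron 1, read from hg38.
CD44 promoter, chr11:35138921-35139220, plus strand: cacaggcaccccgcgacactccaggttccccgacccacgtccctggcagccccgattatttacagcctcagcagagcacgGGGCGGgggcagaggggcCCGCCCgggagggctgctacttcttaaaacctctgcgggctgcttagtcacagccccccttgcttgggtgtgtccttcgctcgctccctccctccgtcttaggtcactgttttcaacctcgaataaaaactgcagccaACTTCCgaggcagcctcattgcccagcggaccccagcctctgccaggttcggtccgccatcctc
CD44 intron 1, chr11:35162715-35163014, plus strand: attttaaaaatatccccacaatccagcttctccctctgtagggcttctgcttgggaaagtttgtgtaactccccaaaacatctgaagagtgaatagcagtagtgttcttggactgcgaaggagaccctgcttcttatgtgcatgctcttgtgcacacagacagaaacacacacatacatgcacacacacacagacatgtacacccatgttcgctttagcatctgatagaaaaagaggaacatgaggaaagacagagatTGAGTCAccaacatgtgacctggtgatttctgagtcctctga
The promoter held 2 GC box matches and 1 ETS match at -14, a motif in 22.8% of promoters. The intron sequence held no GC box and 1 AP-1 match, which begins at base 259 of the printed sequence. That motif was in 12.3% of the centres of all 24523 MV4-11 NC peaks and in 7.71% of promoters.

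CD47, the ligand of SIRPA that restrains phagocytosis, was covered over its start site in 3 libraries (ENSG00000196776.17, chr3:108043091-108091862, minus strand). Its promoter window held 1756 bases in Kasumi-1 control cells and 1391 after knockdown, and 641 in MV4-11 control cells and 0 after knockdown. Control cells were above knockdown cells in either line, and each value was 1 peak or none. In Kasumi-1 the ratio of knockdown to control was 0.79, short of a 1.5-fold difference. In MV4-11, 45.0% of all genes with a promoter peak in either library were lower after knockdown by that limit. A promoter peak in every library but MV4-11 sh-ANP32B was found at 7.66% of protein-coding genes. Of the 6 annotated starts, 3, 2, 2 and 0 were covered. The region held 3 peaks and 2650 bases, 3 peaks and 2388 bases, 2 peaks and 1365 bases, and 0 peaks in the same order. An upstream pair of intervals was present only in Kasumi-1, 8164 and 9095 bases from the start site, and an intron 3 peak of 724 bases only in MV4-11 NC. In MV4-11 sh-ANP32B the nearest peak lay 33549 bases from the start site.

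The CD47 promoter is printed because the peak over its start site was in MV4-11 NC and not in MV4-11 sh-ANP32B.
CD47, chr3:108090982-108091281, minus strand: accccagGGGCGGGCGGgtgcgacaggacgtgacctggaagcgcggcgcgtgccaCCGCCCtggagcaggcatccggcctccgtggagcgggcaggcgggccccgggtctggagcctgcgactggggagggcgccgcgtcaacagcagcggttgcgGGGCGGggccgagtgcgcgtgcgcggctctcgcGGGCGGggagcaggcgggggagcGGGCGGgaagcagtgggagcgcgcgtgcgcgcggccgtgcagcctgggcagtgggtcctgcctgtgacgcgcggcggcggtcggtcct
It held 6 GC box matches, of which the first 2 overlap, and none of the other 7 motifs.

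HAVCR2, which encodes the checkpoint receptor TIM-3 found on leukemic stem cells and T cells, had a promoter peak in 1 library only (ENSG00000135077.10, chr5:157085422-157142869, minus strand). Its promoter window held 1071 bases in MV4-11 knockdown cells and 0 in the other 3 libraries. Only 0.315% of protein-coding genes had a promoter peak in this library alone. The peak was wider than 67.7% of the peaks of that list, and 8 of the 11 annotated starts lay under a peak there, against 1 in each of the other libraries. The region held 1320, 1601, 1840 and 2476 bases. A peak over the promoter of MED7, a Mediator subunit gene, 34039 bases upstream, made up all of the bases in Kasumi-1 and 1306 and 779 bases in MV4-11 before and after knockdown. In every library this peak also lay over the most upstream annotated start of HAVCR2. An intron 3 interval held 534 and 626 bases in the MV4-11 libraries and 0 in those of Kasumi-1. The canonical start site of HAVCR2 itself was thus free of peaks in 3 of 4 libraries.

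CD96, a receptor of T and NK cells that also marks leukemic stem cells, was without peaks (ENSG00000153283.13, chr3:111292719-111665750, plus strand). No peak was present in its 413032 bases in any library. The nearest peak lay 836372, 836372, 836106 and 834447 bases from its start site. Of all protein-coding genes, 50.1% had no promoter peak in any library, and CD96, PROM1 and CD38 were among them.

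**Figure D3:**
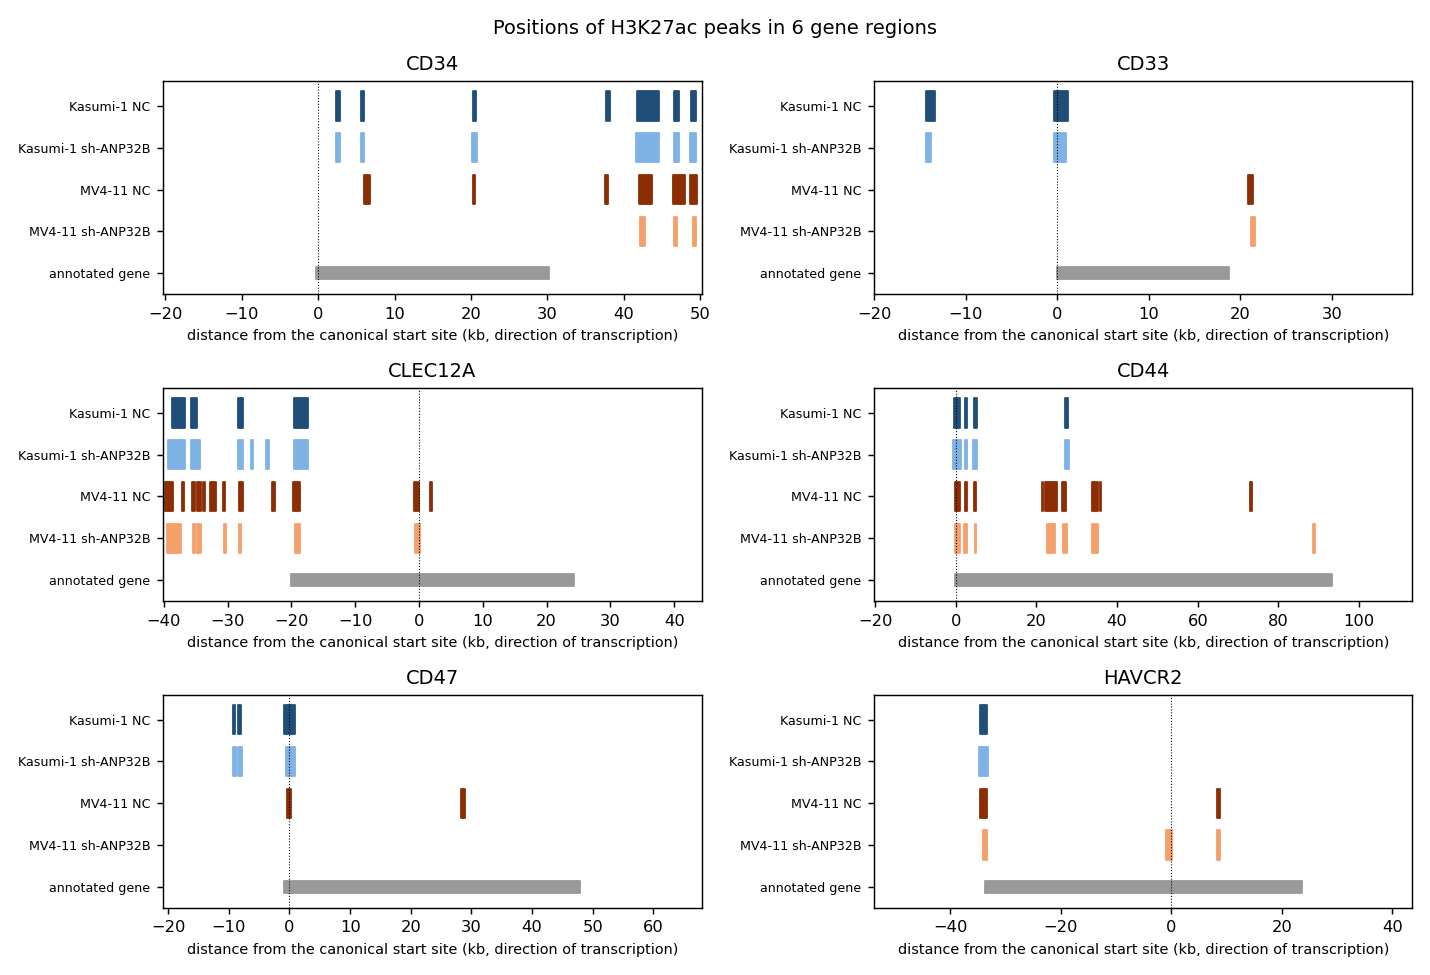
Positions of H3K27ac peaks in the regions of 6 genes, as distance from the canonical start site in kb in the direction of transcription (horizontal axis), with 1 line of boxes per library and the annotated gene in grey. The dotted line is the start site. CD44 carries wide MV4-11 boxes in intron 1 that the Kasumi-1 lines lack, CD34 carries its widest boxes downstream of the gene, and CD47 has no box in MV4-11 sh-ANP32B.

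The first question was whether knockdown of ANP32B changed the extent of H3K27ac at these genes. A gene was called lower or higher where its covered bases differed at least 1.5-fold, or were 0 in only 1 of the pair. In Kasumi-1, of the 4 antigen genes with a promoter peak in either library, 0 were lower and 0 higher, while 14.6% of genes were lower and 4.87% higher in the background of all protein-coding genes with a promoter peak in either. Of the 6 with a peak in the gene region, 0 were lower and 0 higher, against 8.79% and 5.65% of all genes. The ratios of sh-ANP32B to NC ran from 0.81 for CD33 to 1.33 for CLEC12A. The median log2 ratio of the 6 was 0.053, beside 0.019 for all genes. With 4 and 6 genes, these counts are close to the background shares.

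In MV4-11, of the 4 antigen genes with a promoter peak in either library, 1 was lower, CD47, and 1 was higher, HAVCR2. Of all genes, 45.0% were lower and 7.28% higher. CLEC12A had 0.71 times its NC bases and CD44 1.09 times. Of the 7 with a peak in the gene region, 3 were lower, CD34, CD38 and CD47, and 0 were higher, against 39.4% lower and 7.65% higher among all genes. The count of lower regions is near the background share. The HAVCR2 call was lost when every annotated start was used in place of the canonical one. The calls of CD47 and CD38 were lost when only the 10000 widest peaks of each list were kept. That of CD38 was also lost with 1 common minimum width and gap, and with a difference of at least 357 bases, a setting chosen after seeing the data.

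CD34 differed most among regions with peaks in both MV4-11 libraries, from 5526 to 1384 bases, a ratio of 0.25 or -1.997 on the log2 scale, where the median of all genes was -0.32. CLEC12A stood at a ratio of 0.67, just short of the 1.5-fold limit, CD33 at 0.70, CD44 at 0.82 and HAVCR2 at 1.35. The CLEC12A region was called lower with peaks at most 1 kb apart joined and without peaks over another coding promoter. That of HAVCR2 was called higher without the flank, with bases divided by the library median and without peaks over another coding promoter. The median log2 ratio of the 5 regions with peaks in both libraries was -0.52. On the log2 scale CD44, at -0.29, lay close to the shift of all genes, HAVCR2, at 0.43, above it, and CD33 and CLEC12A, at -0.52 and -0.58, a little below it.

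**Figure D4:**
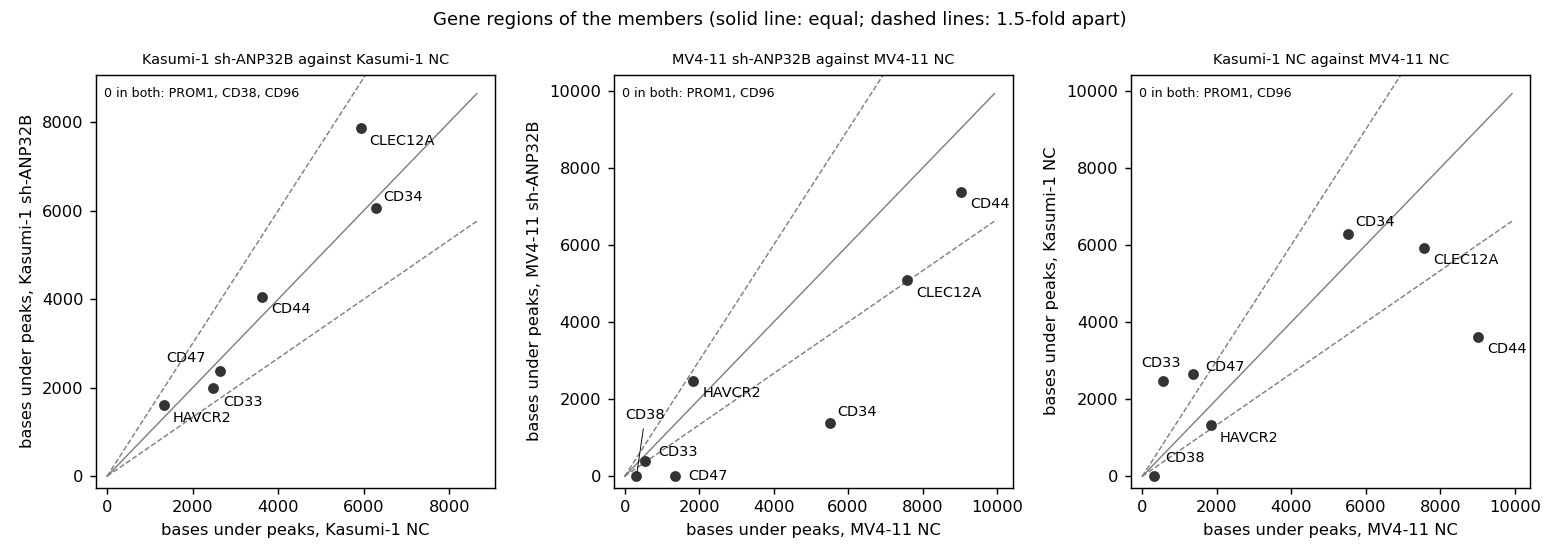
Bases under H3K27ac peaks in the gene region of each gene, for the pairs of libraries compared (both axes in bases, 1 point per gene). The solid line marks equal values and the dashed lines a 1.5-fold difference. In Kasumi-1 all points lie between the dashed lines, in MV4-11 CD34, CD38 and CD47 lie below them, and between the control libraries CD44 and CD38 lie below and CD33 and CD47 above.

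The positions of the peaks were compared by overlap of at least 1 base, with Wilson 95% intervals that cover counting error only. Of the 21 peaks in the regions of the 9 genes in Kasumi-1 NC, 20 overlapped a peak of Kasumi-1 sh-ANP32B, or 95.2% (77.3 to 99.2%). Of all Kasumi-1 NC peaks, 91.0% did. Of the 33 peaks in MV4-11 NC, 19 overlapped a peak of MV4-11 sh-ANP32B, or 57.6% (40.8 to 72.8%), where 70.9% of all peaks did. In the reverse direction, 20 of 22 peaks of Kasumi-1 sh-ANP32B (90.9%) and 19 of 22 of MV4-11 sh-ANP32B (86.4%) overlapped a peak of their NC library. The corresponding shares of all peaks were 86.8% and 82.3%. In MV4-11 the antigen regions had 33 peaks before and 22 after knockdown, beside 24523 and 22136 in the whole lists. Of the 33, CLEC12A held 12 and CD44 9. In Kasumi-1 the regions had 21 and 22 peaks, beside 22768 and 23878.

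The second question was how the lines differ at these genes. Between the NC libraries, of the 5 antigen genes with a promoter peak in either, 3 were higher in Kasumi-1, CD34, CD33 and CD47, and 1 was lower, CLEC12A. Of all genes, 61.9% were higher and 5.86% lower. CD47 had 2.74 times as many promoter bases in Kasumi-1 NC, or 1.45 on the log2 scale beside 0.58 for all genes, and CD44 had 1.37 times as many. CLEC12A thus went against the direction of most genes. Its call, too, was lost with every annotated start or with only the 10000 widest peaks, and that of CD34 was lost with a narrower promoter window.

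Of the 7 with a peak in the gene region, 2 were higher in Kasumi-1 NC, CD33 and CD47, and 2 lower, CD38 and CD44, where 50.9% of all genes were higher and 14.8% lower. The ratio of Kasumi-1 NC to MV4-11 NC was 4.47 for CD33, 1.94 for CD47, 1.14 for CD34, 0.78 for CLEC12A, 0.72 for HAVCR2 and 0.40 for CD44. The median log2 ratio of the 6 regions with peaks in both was -0.083, beside 0.53 for all genes. The direction for CLEC12A depended on the setting. With only the 10000 widest peaks its region held 4322 bases in control Kasumi-1 and 2370 in control MV4-11 cells and was called higher in Kasumi-1, as it was between the sh-ANP32B libraries. It was called lower with peaks at most 1 kb apart joined, with bases divided by the library median and without peaks over another coding promoter. CD44 stood at -1.32 and CD33 at 2.16 on that scale. The call of CD47 was lost without the flank, at a fold of 2 and with bases divided by the library median, and that of CD38 with 1 common minimum width and gap, with only the 10000 widest peaks, with a difference of at least 357 bases and between the sh-ANP32B libraries.

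Of the 33 peaks in the antigen regions of MV4-11 NC, 16 overlapped a peak of Kasumi-1 NC, or 48.5% (32.5 to 64.8%), where 65.2% of all MV4-11 NC peaks did. Of the 21 in Kasumi-1 NC, 15 overlapped a peak of MV4-11 NC, or 71.4% (50.04 to 86.2%), where 67.0% of all did. Over the 4 libraries the regions held 40 merged intervals, of which 12 were in all libraries, 3 in 3, 12 in 2 and 13 in 1. Of these, 17 were in MV4-11 only and 7 in Kasumi-1 only. The CLEC12A and CD44 regions gave 6 each of the 17. Those of 342 and 294 bases at CLEC12A and 317 at CD38 were narrower than the smallest peak of either Kasumi-1 list. The same split was not computed for the regions of all genes, so it is not read as particular to the antigen genes. Only 8 of the 40 reached a promoter window of the antigen genes, and 2 reached that of another protein-coding gene, CLEC2A and MED7.

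Peaks not wholly inside the promoter window of a protein-coding gene were joined into domains where they lay at most 12500 bases apart. The domains were ranked by their summed width. The domain that reached the CD34 region ranked 278 of 7692 and 332 of 8085 in Kasumi-1 before and after knockdown, and 179 of 9996 and 348 of 9272 in MV4-11. It spanned 43524 to 47927 bases, mostly beyond the gene and its flank, and was the only domain at these genes within the top 500, in each of the 4 libraries. The intron 1 domain of CD44 ranked 625 and 810 in MV4-11 before and after knockdown. In Kasumi-1 the widest CD44 domain, nearer the start site, ranked 3828 and 4084 and included a peak that reached into the promoter window of CD44. The CLEC12A domain ranked 1368, 1127, 733 and 1782. In MV4-11 the summed width of the CD34 domain was 11968 bases before and 7523 after knockdown, and its rank stayed within the top 500.

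A sequence feature that the choice of genes did not use is the CpG content around the start site. The ratio of observed to expected CpG in 1001 bases was 0.928 for CD47, 0.741 for PROM1, 0.676 for CD34, 0.676 for CD44, 0.574 for CD38, 0.38 for CD96, 0.251 for CD33, 0.206 for HAVCR2 and 0.0698 for CLEC12A. Only 0.814% of protein-coding genes had a lower ratio than CLEC12A, while 92.3% were lower than CD47. Among genes with a ratio of at least 0.6, 63.4%, 59.9%, 46.7% and 36.9% had a promoter peak in the 4 libraries, beside 16.8%, 16.5%, 14.2% and 12.4% of the others. Of the 4 antigen genes with a ratio of at least 0.6, 3, 3, 2 and 1 had a promoter peak, and of the other 5, 1, 1, 1 and 2. The latter were CD33 in Kasumi-1, CLEC12A in MV4-11 and HAVCR2 in MV4-11 sh-ANP32B. With so few genes in a class, no difference from the class shares was read from these counts.

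**Figure D5:**
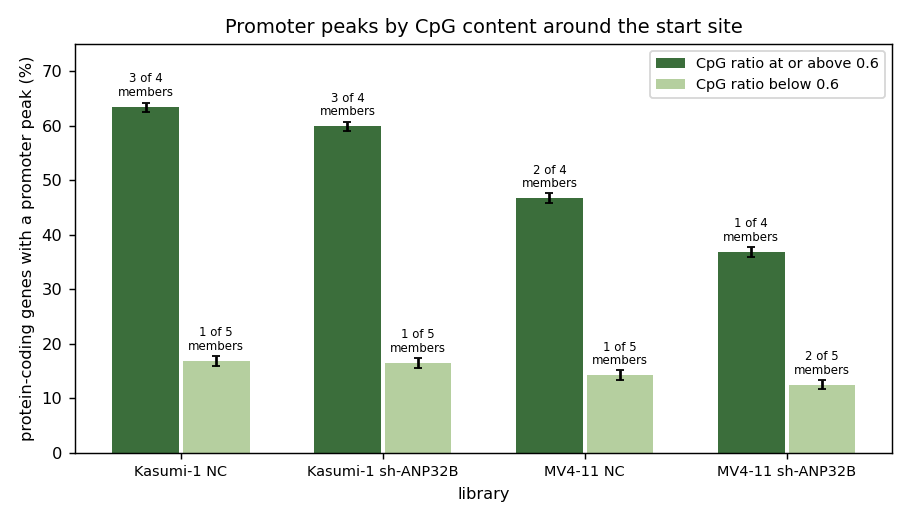
Share of protein-coding genes with a promoter peak (vertical axis, percent) in each library (horizontal axis), for genes with a CpG ratio at or above 0.6 (dark) and below it (light). Error bars are Wilson 95% intervals, which cover counting error only, and the text above each bar counts the antigen genes of that class with a promoter peak. The share is higher in the dark class in every library, from 63.4% in Kasumi-1 NC to 36.9% in MV4-11 sh-ANP32B.

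The antigen genes were set beside 28 other surface antigens of AML. Of these, 15, 15, 13 and 9 had a promoter peak. Knockdown in Kasumi-1 left 1 lower and 2 higher of 16 with a promoter peak in either library, where the background was 14.6% and 4.87%, and in the gene region 1 lower and 2 higher of 25, beside 8.79% and 5.65%. IL1RAP, a subunit of interleukin receptors, went from 1343 bases to 0, and FCGR1A, an Fc receptor, from 1029 to 1611. In MV4-11, 8 of 14 promoters were lower and 1 was higher, where the background was 45.0% and 7.28%. Of the gene regions, 3 of 27 were lower and 3 higher, beside 39.4% and 7.65% of all genes. SELPLG, the ligand of P-selectin, went from 3664 to 2150 bases, TFRC, the transferrin receptor, from 1110 to 0, and ITGA4, an integrin subunit, from 2062 to 1330. CD82, a tetraspanin, was the 1 that was higher, from 0 to 1838 bases, and it had 1441 and 2120 bases in Kasumi-1 before and after knockdown.

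Between the NC libraries, 8 of 17 of these antigens had more promoter bases in Kasumi-1 and 3 fewer, beside 61.9% and 5.86% of all genes. In the gene region 12 of 27 were higher in Kasumi-1 and 9 lower, beside 50.9% and 14.8%. ADGRE5, an adhesion receptor, had 3345 and 1275 promoter bases in Kasumi-1 and MV4-11. FLT3, a receptor tyrosine kinase mutated in many AML cases, had 2028 and 299 bases, and CD52, a small glycoprotein, 3669 and 2052. IL3RA, the receptor for interleukin 3, had 1867 and 0 bases, but it lies in sequence shared by X and Y, as does CD99, another of the 28, so reads of these genes could be placed on either copy. KIT counts both among the 28 and among the markers of the fusions above.

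Ligands and receptors that bind the antigens were read in the same way. Of 11, 5, 5, 4 and 4 had a promoter peak in the 4 libraries. Knockdown left 0 of 5 promoters lower or higher in Kasumi-1, beside 14.6% and 4.87% of all genes, and 0 of 8 gene regions, beside 8.79% and 5.65%. In MV4-11, 4 of 7 gene regions were lower and 0 higher, beside 39.4% and 7.65%. Of 4 promoters there 1 was lower and 0 higher, beside 45.0% and 7.28%. It was that of HMGB1, a ligand of TIM-3, at 2352 bases in NC and 887 in sh-ANP32B. SIRPA, the receptor of CD47, went from 4098 to 3198 bases there, a difference short of the limit. LGALS9, another ligand of TIM-3, went from 2765 to 2088 bases, and PECAM1, a ligand of CD38, from 1359 to 1140. Between the NC libraries 2 of 5 promoters were higher in Kasumi-1 and 0 lower, beside 61.9% and 5.86%, and 4 of 8 gene regions were higher and 1 lower, beside 50.9% and 14.8%. The promoters were those of PECAM1, at 3403 and 1359 bases, and PVR, a ligand of CD96, at 1381 and 0.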

How the data were processed

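H3K27ac was measured by CUT&Tag in 4 libraries, 1 per group, and 2 IgG samples were not analysed here. Per the methods of the study, the authors used Bowtie2 (v2.2.5, build hg38) for alignment, Picard against PCR duplicates, samtools (v1.15.1) to pool replicates and MACS2 (v2.2.7, q-value 0.01) for peaks. The submitters' processing notes name Bowtie2 2.4.4 and MACS3 3.0. Whether IgG served as the control is not given in the sources used here. The deposited lists give the start, end and width of each peak in bases, with no height or q-value, so depth is unknown. A peak missing from a list says that it was not called, and not that the mark is absent. Because the caller's smallest width differed between libraries (357, 354, 289 and 275 bases), a narrow peak could enter 1 list and not another.

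Peaks on chromosomes 1 to 22, X and Y were intersected with windows around 20015 protein-coding genes of GENCODE v44 (Python 3.11.15, numpy 2.4.6). Covered bases, numbers of peaks and overlaps of at least 1 base were computed, and the calls were tested on simulated peaks. With 1 list per group no p-value was computed. Groups came from the labels. Sequences are from RefSeq (GRCh38.p14, 8 of 9 genes matched, HAVCR2 not) and hg38. The 9 genes and the gene lists were chosen with earlier results of these data known. Named genes were the 9, the markers of both fusions, up to 4 genes of each other list with the largest change in promoter bases per comparison, the 3 nearest in pattern to the member that differed most between the NC libraries, and genes whose promoter a region peak overlaps. Alternatives varied the windows, starts, peaks, fold, scaling and overlap.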

Additional observations from a re-analysis of the deposited data

Results flagged for a closer look

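The CLEC12A region moved in opposite directions after knockdown of ANP32B in the 2 lines, with 1929 more bases under peaks in Kasumi-1 and a difference of -2493 bases in MV4-11. It was singled out because the change had opposite signs with 1 library per group, and whether the lines differ was not tested. In Kasumi-1 the change came from wider upstream peaks and 2 further peaks, of 365 and 477 bases, and in MV4-11 from 12 peaks against 8.

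The CD44 region was singled out for the same reason, with 429 more bases in Kasumi-1 and a difference of -1643 bases in MV4-11, and this difference was not tested either. Its promoter window had 110 more bases in Kasumi-1 and 126 more in MV4-11, so that the opposite signs belong to the rest of the region.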

How the results depend on the processing

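Of 128 counts and shares recomputed under the alternatives, 106 stayed close to their value and 22 did not. A count or share has no sign, so no change of direction could be recorded for these. Close allowed 2 lower regions in MV4-11 sh-ANP32B in place of 3, with 1 common minimum width and gap. It also covered the counts of lower and higher genes in Kasumi-1 sh-ANP32B, which were 0 at the start and stayed at 0. Of 119 called differences of single genes, 101 kept their call, 18 lost it and 0 changed direction. A fold of 2 or a difference of at least 357 bases could remove a call but not change its direction. The 119 leave out differences not called at the start. The CLEC12A region was 1 of them, and between the lines it was called higher in Kasumi-1 with the 10000 widest peaks and between the sh-ANP32B libraries, but lower with peaks joined, with the library median and without peaks over another coding promoter. No paired analysis was possible because each group has 1 peak list and no result comes from a test. The cause of the changes below was not tested unless the alternative itself shows it.

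With only the 10000 widest peaks of each list, which removes narrow peaks by construction, 0 promoters and 1 region (CD34) were lower in MV4-11 sh-ANP32B, 0 promoters and 1 region were lower in Kasumi-1 NC than in MV4-11 NC, and 100% of the 7 Kasumi-1 NC peaks left overlapped Kasumi-1 sh-ANP32B. With every annotated start in place of the canonical one, 2 promoters were lower and 0 higher in MV4-11 sh-ANP32B, and 0 were lower in Kasumi-1 NC than in MV4-11 NC. The calls of HAVCR2 and CLEC12A were lost and CD34 became lower in MV4-11. Without the flank, 100% of 11 Kasumi-1 NC peaks were shared, 1 region (HAVCR2) was higher in MV4-11 sh-ANP32B, and 1 was higher in Kasumi-1 NC. With bases divided by the library median, 1 region (HAVCR2) was higher in MV4-11 sh-ANP32B, and 4 were lower and 1 higher in Kasumi-1 NC. Without peaks over another coding promoter, 1 region was higher in MV4-11 sh-ANP32B and 4 were lower in Kasumi-1 NC. With 1 common minimum width and gap, 1 region was lower in Kasumi-1 NC, since the CD38 peak dropped out. A fold of 2 left 1 region higher in Kasumi-1 NC. With an overlap of at least 50% of each peak, 27.3% of MV4-11 NC peaks were shared with Kasumi-1 NC.

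Chosen after seeing the data were 2 more settings. A difference of at least 357 bases left 1 region lower in Kasumi-1 NC. Comparing the sh-ANP32B libraries of the lines gave 2 promoters lower and 4 regions higher in Kasumi-1. Depth is unknown, which limits the calls that rest on narrow peaks, those of CD38 and the CD34 promoter edge among them.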
